A study of Mus musculus with 9 samples.

Results

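RNA levels of 10 mouse genes were followed through beige adipocyte differentiation: Ckb, Ckmt1, Ckmt2, Gatm, Gamt, Slc6a8 and Alpl, which act in the creatine cycle, and Atp2a1, Atp2a2 and Atp2a3, which encode the calcium pumps of the calcium cycle. They were taken by gene symbol from a table of 55359 genes, in which each symbol had 1 row. The cells were adipocyte precursors from the inguinal white fat depot, which lies under the skin of the mouse groin, sequenced as 3 libraries each before induction (day 0) and after 4 and 8 days of differentiation. Day 4 and day 8 cells had received dexamethasone, IBMX (3-isobutyl-1-methylxanthine), indomethacin, insulin, triiodothyronine and rosiglitazone, the first 3 of which were withdrawn after the 2-day induction, and day 0 cells had received no induction medium. RNA of all groups came from the cleared supernatant of a Triton X-100 lysate that also contained cycloheximide. The labels used here do not say whether replicates were separate cultures or animals, so the spread behind each p-value is that between libraries and may be technical. In bulk cultures, fewer cells of a type and less RNA per cell cannot be told apart.

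Thermogenic fat can turn ATP into heat without the uncoupling protein UCP1 by running a reaction and its reversal side by side. In the creatine cycle, creatine kinase transfers phosphate from ATP to creatine and a phosphatase removes it again. Creatine is made by the enzymes encoded by Gatm and Gamt or taken up by the transporter Slc6a8, it is phosphorylated by cytosolic (Ckb) or mitochondrial (Ckmt1, Ckmt2) kinases, and the phosphatase encoded by Alpl, known as TNAP, has been found in mitochondria of mouse thermogenic fat. In the calcium cycle, a SERCA pump spends ATP to move calcium into the endoplasmic reticulum, from which release channels let it return, and SERCA2b, an isoform of Atp2a2, is the pump described for this cycle in beige fat.

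Total counts ranged from 26387408 to 31474490 per library. Levels are given as CPM, counts per 1e6 counts after TMM scaling of the library total (a correction for differences in RNA composition), and CPM per kilobase, used wherever genes are compared with each other, divides by the length of all exons in the GENCODE M21 annotation. Day 4 replicate 2 stood apart: its score on principal component 1 (75.7% of the variance) was 13.7, against 84.6 and 69.5 for the other day 4 libraries and -138 to -135 at day 0. The summed level of 6 adipocyte markers was 24.2 to 49.5 CPM at day 0, 19684 to 36587 CPM at day 4 and 26897 to 29138 CPM at day 8, with the lowest day 4 value in replicate 2. The summed level of 7 precursor markers was 2238 to 2411 CPM at day 0, 830 to 2114 CPM at day 4 and 665 to 890.4 CPM at day 8, and the highest day 4 value was again that of replicate 2. Of the 6 precursor markers tested, 2 were higher (Cd34 and Ly6a) and 3 lower in day 4 against day 0, and 0 were higher and 4 lower in day 8 against day 0. Of all genes tested, 54.6% and 63.4% were called in either direction in these comparisons. The Cd34 call did not hold when day 0 replicate 1 or 2, or replicate 3 of day 4, was left out (edgeR adjusted p up to 0.0675), nor that of Ly6a without day 0 replicate 2 or 3 or with total counts (up to 0.102), and the Ly6a log2 fold change of 1.00 was 0.46 without day 4 replicate 2.

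Of the 10 genes, 7 had enough counts to be tested, Ckmt1 and Atp2a1 were near the detection limit and Ckmt2 had no count in any library. The genes did not move together. Atp2a3 rose by 50.6-fold by day 4 and 90.4-fold by day 8. Slc6a8 was lower at both times, Ckb and Alpl were lower at day 4, Gamt was higher at day 4 alone among the 3 days, and Atp2a2 was lower at day 4. In day 4 against day 0, 2 of the 7 tested genes were higher (Gamt, Atp2a3) and 4 lower (Ckb, Slc6a8, Alpl, Atp2a2), with adjusted p under 0.05 in edgeR's quasi-likelihood test. Over all 14649 genes tested in that comparison, 28.6% were called higher, 26% lower and 54.6% in either direction. In day 8 against day 0, 1 was higher (Atp2a3) and 2 lower (Slc6a8, Gatm), against 33.5% and 29.9% of all genes, or 63.4% in either direction. The Gatm call is no support for a fall, because Gatm passed the filter on low counts only through day 0, where it was high. In day 8 against day 4, 1 was higher (Ckb) and 1 lower (Gamt), against 11.7% and 10.8%, or 22.4% in either direction. Of all called genes, 52.9% were higher in day 8 against day 0 and 52.4% in day 4 against day 0, and with scaling by total counts 37.6% and 35.3% were. The median log2 fold change of the 7 genes was -0.33 in day 8 against day 0, where that of all genes was 0.03. It was -0.93 in day 4 against day 0 (all genes -0.01) and 0.32 in day 8 against day 4 (all genes 0.00).

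**Figure D1:**
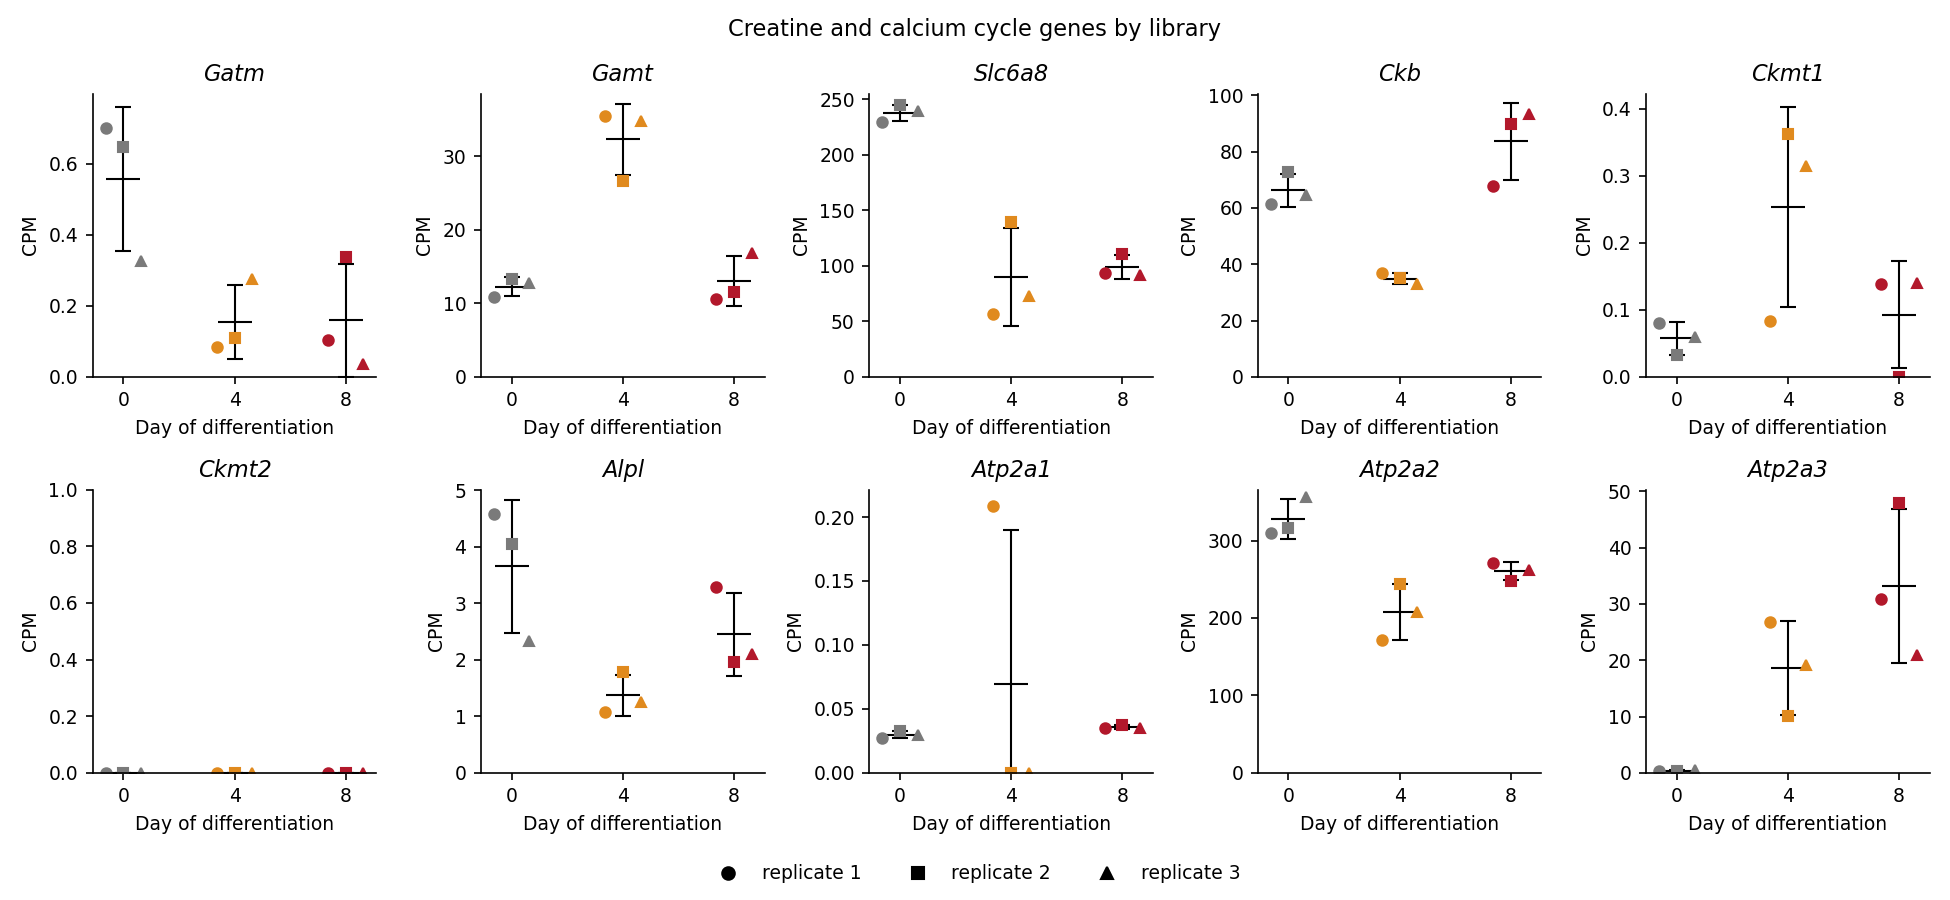
Level of each gene in CPM (vertical axes, each starting at 0) in the 9 libraries by day of differentiation. Points are libraries, with a shape for each replicate number, and the horizontal line and bars are the mean and SD of 3 libraries (lower bars end at 0 where they would pass it). Atp2a3 is near 0 at day 0 and at 10.0 CPM or more in every later library, Ckb dips to 32.9 to 36.8 CPM at day 4, Gamt peaks there, and Ckmt2 is at 0 throughout.

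The promoters of 3 genes with different courses, chosen after their values were seen, are shown for reference: Ckb, which was low at day 4, Gamt, which was high at day 4, and Atp2a3, which was near 0 at day 0. Each window runs 5′ to 3′ along the gene's strand, from 250 bases before to 50 bases after the gene's start in RefSeq (build GRCm38.p6, which is not the build the reads were aligned to). The table of promoters held 8 of the 10 genes, and those of Slc6a8 and Atp2a2 are named only. Capitals mark the CCAAT box (CCAAT), the TATA box (TATAAA), the GC box (GGGCGG), the nuclear receptor motif (AGGTCA), the ERR element (TCAAGGTCA, which contains that motif) and the C/EBP core (TTNCNNAA), each searched on both strands. The windows are chr12:111672289-111672588 on the minus strand for Ckb, chr10:80260963-80261262 on the minus strand for Gamt and chr11:72960919-72961218 on the plus strand for Atp2a3.
Ckb: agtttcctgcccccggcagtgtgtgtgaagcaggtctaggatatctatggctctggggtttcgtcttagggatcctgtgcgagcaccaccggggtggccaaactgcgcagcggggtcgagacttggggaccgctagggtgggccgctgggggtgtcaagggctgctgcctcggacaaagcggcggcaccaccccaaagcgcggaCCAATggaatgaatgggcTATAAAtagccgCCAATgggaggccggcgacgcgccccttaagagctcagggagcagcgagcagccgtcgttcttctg
Gamt: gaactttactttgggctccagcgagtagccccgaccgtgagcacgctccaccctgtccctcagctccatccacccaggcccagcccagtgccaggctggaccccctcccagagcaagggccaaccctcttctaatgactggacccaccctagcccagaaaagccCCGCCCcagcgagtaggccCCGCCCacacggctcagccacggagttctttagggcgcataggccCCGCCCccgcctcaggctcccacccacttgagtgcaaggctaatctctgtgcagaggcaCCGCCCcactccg
Atp2a3: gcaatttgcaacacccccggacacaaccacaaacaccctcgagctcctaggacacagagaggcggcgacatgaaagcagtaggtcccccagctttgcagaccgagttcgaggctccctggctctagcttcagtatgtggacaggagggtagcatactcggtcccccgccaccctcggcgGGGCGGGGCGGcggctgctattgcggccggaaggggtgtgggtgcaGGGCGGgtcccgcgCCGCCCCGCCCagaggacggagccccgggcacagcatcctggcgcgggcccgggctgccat
The Ckb window held CCAAT on its own strand at 46 and 16 bases before the start, on either side of a TATAAA at 28 bases before it. The Gamt window held 4 GC boxes and the Atp2a3 window 5, and neither held the TATA box or the CCAAT box searched for. Of all 32851 promoters in the table, 37.4% held CCAAT, 13.6% TATAAA, 35.7% the GC box, 16.3% the nuclear receptor motif, 0.423% the ERR element and 40.7% the C/EBP core. G and C made up 63% of the Ckb window, 66% of that of Gamt and 68.3% of that of Atp2a3. The median over all 32851 promoters was 52.7%. These matches are letters in a window and say nothing of which proteins bound there.

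Among the genes of creatine synthesis and uptake, Gamt rose and Slc6a8 fell at day 4, and at day 8 Slc6a8 was lower than at day 0. Gatm, which makes the creatine precursor guanidinoacetate from arginine and glycine, was scarce in every library. It had 26, 20 and 11 counts at day 0, 2, 3 and 7 counts at day 4 and 3, 9 and 1 counts at day 8, or 0.558 ± 0.203, 0.156 ± 0.104 and 0.159 ± 0.159 CPM (SD, n = 3 each). The highest day 8 library, at 0.339 CPM, lay above the lowest day 0 library, at 0.325 CPM, so these groups overlapped, while every day 4 library was below day 0. The log2 fold change was -1.80 (SE 0.72, edgeR adjusted p = 0.0475) in day 8 against day 0 and -1.81 (SE 0.73, adjusted p = 0.0556) in day 4 against day 0. Gatm passed the filter on low counts only through day 0, where it was high, so its call is no support for a fall. The day 8 call did not hold when a library was left out at day 0 (replicate 1, adjusted p = 0.131, or 2, 0.115), at day 4 (replicate 1, 0.0532, or 3, 0.0511) or at day 8 (replicate 1, 0.139, or 3, 0.144). Without day 8 replicate 2 the difference was -2.92 (adjusted p = 0.0128).

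Gamt methylates guanidinoacetate to creatine, the second step of synthesis. It stood at 10.8, 13.4 and 12.7 CPM at day 0, at 35.5, 26.7 and 34.8 CPM at day 4 and at 10.6, 11.6 and 16.9 CPM at day 8. All 3 day 4 libraries were above every library of the other days, and days 0 and 8 overlapped. Gamt rose by 2.63-fold in day 4 against day 0 (log2 fold change 1.39, SE 0.20, edgeR adjusted p = 0.000225) and fell in day 8 against day 4 (-1.31, SE 0.20, adjusted p = 0.00231). In day 8 against day 0 the difference was 0.08 with a 95% interval of -0.36 to 0.53 (adjusted p = 0.736).

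Slc6a8, the plasma membrane creatine transporter, was the creatine gene with the highest level per kilobase at day 0. It had 229.7, 244.2 and 239.1 CPM at day 0, 56.5, 139.5 and 72.9 CPM at day 4 and 93.7, 110.8 and 91.5 CPM at day 8. All later libraries lay below all day 0 libraries, and day 4 replicate 2, the library that stood apart, was the highest of the later ones. The log2 fold change was -1.27 (SE 0.27, edgeR adjusted p = 0.00212) in day 8 against day 0 and -1.41 (SE 0.28, adjusted p = 0.00152) in day 4 against day 0. Day 8 and day 4 differed by 0.14 (95% interval -0.46 to 0.74, adjusted p = 0.737). Without day 4 replicate 2, Slc6a8 was 0.56 higher in day 8 against day 4 (adjusted p = 0.0142) and -1.88 in day 4 against day 0.

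Ckb supplied almost all creatine kinase RNA. Per kilobase it made up 99.9% ± 0.0504 of the summed level of Ckb, Ckmt1, Ckmt2 and the muscle kinase Ckm at day 0, 99.1% ± 0.511 at day 4 and 99.9% ± 0.122 at day 8 (SD, n = 3 each). Ckb, the brain-type cytosolic kinase, stood at 61.5, 72.8 and 64.7 CPM at day 0, at 36.8, 35.0 and 32.9 CPM at day 4 and at 67.9, 89.7 and 93.4 CPM at day 8. The day 4 libraries lay close together below all others, and 2 of the 3 day 8 libraries exceeded every day 0 library. Ckb fell by 0.93 on the log2 scale in day 4 against day 0 (SE 0.15, edgeR adjusted p = 0.00037) and rose by 2.40-fold in day 8 against day 4 (log2 fold change 1.26, SE 0.15, adjusted p = 0.000519). Day 8 stood 0.33 above day 0 on the log2 scale, with a 95% interval of 0.02 to 0.65 that did not pass adjustment over all genes (adjusted p = 0.0623). Without day 8 replicate 1 that difference was 0.47 (adjusted p = 0.0106), and with scaling by total counts it was -0.03 (adjusted p = 0.871). That scaling also moved the median log2 fold change of all genes in day 8 against day 0, from 0.03 to -0.33.

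The mitochondrial kinases were undetected or near the detection limit. Ckmt1, the ubiquitous form, had 3, 1 and 2 counts at day 0, 2, 10 and 8 counts at day 4 and 4, 0 and 4 counts at day 8. Summed over the 3 libraries of a day this was 0.0589 CPM (exact Poisson 95% interval 0.0216 to 0.128) at day 0, 0.26 CPM (0.159 to 0.401) at day 4 and 0.0953 CPM (0.0411 to 0.188) at day 8. The day 4 libraries spread from 0.0834 to 0.363 CPM, and the gene did not pass the filter for testing. Ckmt2, the form of striated muscle that is also known from brown fat, had 0 counts in all 9 libraries, which allows at most 0.0114 CPM over them (3 counts). Ckm had 0 counts as well. Intervals and limits of this kind cover counting error only. In the GENCODE M21 annotation, 0.401% of the Ckmt1 exon bases overlap the antisense gene Strc, so Ckmt1 counts could hold reads of that gene if strand was not used in counting.

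Alpl, which encodes the phosphatase of the cycle, was low throughout. It stood at 4.58, 4.05 and 2.34 CPM at day 0, at 1.08, 1.78 and 1.26 CPM at day 4 and at 3.29, 1.96 and 2.10 CPM at day 8. All day 4 libraries were below all libraries of the other days, while days 0 and 8 overlapped. Alpl fell by 1.41 on the log2 scale in day 4 against day 0 (SE 0.36, edgeR adjusted p = 0.00695). The difference was 0.83 (95% interval 0.03 to 1.63, adjusted p = 0.118) in day 8 against day 4 and -0.57 (-1.34 to 0.19, adjusted p = 0.167) in day 8 against day 0, the last passing with total counts (adjusted p = 0.0432). Alpl is also an osteoblast gene. Of 5 other osteoblast markers 3 had counts at each day, their sum was 23.9 to 28.1 CPM at day 0, 4.67 to 10.4 CPM at day 4 and 5.12 to 12.2 CPM at day 8, and it was mostly Runx2 (25.5 ± 2.19, 6.55 ± 3.08 and 8.58 ± 3.29 CPM by day), a transcription factor also expressed outside bone. The late markers Bglap and Dmp1 were at 0 at day 0, and Ibsp and Dmp1 at days 4 and 8. Their part in the Alpl result was not tested.

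**Figure D2:**
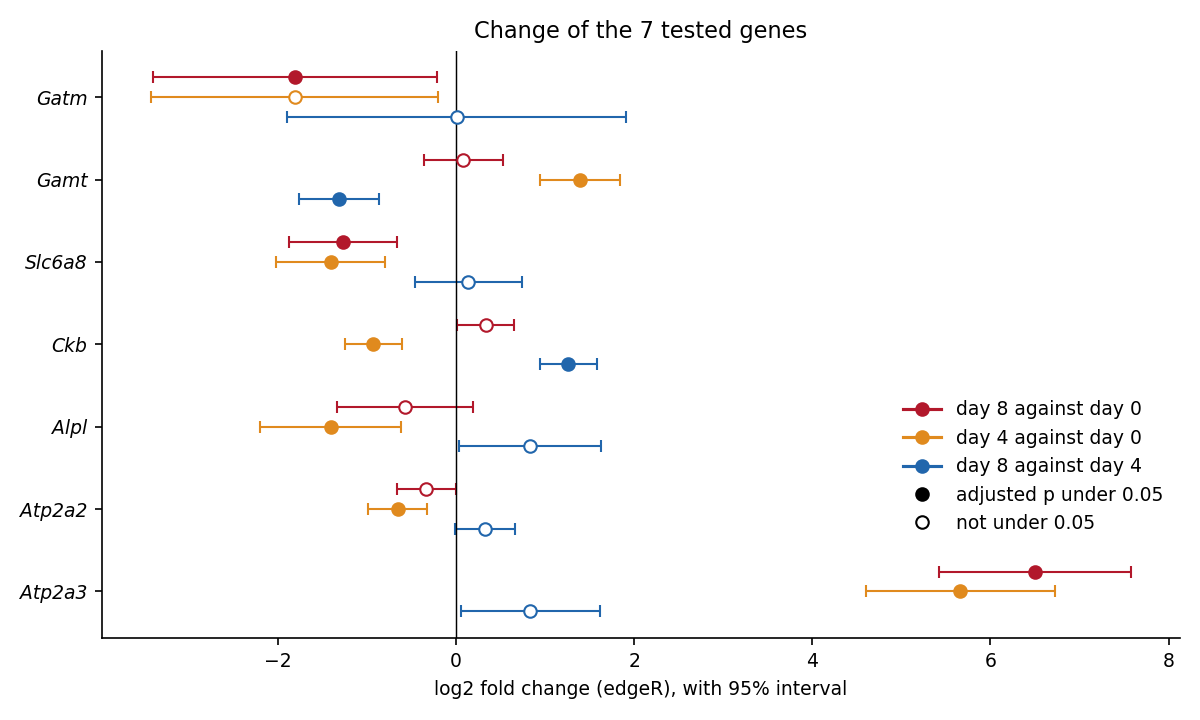
Log2 fold change (horizontal axis) of the 7 tested genes in 3 comparisons, with 95% intervals from the edgeR fit. Filled points have an adjusted p under 0.05 over all 14649 genes. Atp2a3 lies apart at 5.66 and 6.50 against day 0, Ckb and Gamt have opposite signs at day 4 against day 0 and at day 8 against day 4, and the intervals of Gatm are the widest.

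Among the calcium pumps, Atp2a3 rose, while Atp2a2 fell at day 4. Atp2a3 encodes SERCA3, a pump of lower calcium affinity known from blood cells, endothelium and epithelia. It had 12, 10 and 15 counts at day 0 (0.323, 0.324 and 0.444 CPM). It stood at 26.8, 10.0 and 19.1 CPM at day 4 and at 30.8, 48.0 and 20.9 CPM at day 8. Every later library was far above every day 0 library, and days 4 and 8 overlapped. The log2 fold change was 6.50 (SE 0.49, edgeR adjusted p = 2.43e-06) in day 8 against day 0 and 5.66 (SE 0.48, adjusted p = 5.54e-06) in day 4 against day 0. The difference of 0.84 in day 8 against day 4 (SE 0.35, 95% interval 0.05 to 1.62) did not pass adjustment over all genes (adjusted p = 0.111), but passed without day 4 replicate 1 (1.19, adjusted p = 0.0329) and when low genes were kept in (adjusted p = 0.041). The lowest later library was day 4 replicate 2, which also had the lowest adipocyte marker sum after day 0.

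Atp2a2, which encodes the widely expressed SERCA2, was the most abundant of the 10 genes per kilobase on each day. It stood at 309.4, 316.5 and 356.7 CPM at day 0, at 171.7, 244.3 and 207.7 CPM at day 4 and at 271.0, 247.8 and 261.7 CPM at day 8. All libraries of days 4 and 8 lay below all of day 0, and those of day 8 above those of day 4. Atp2a2 fell by 0.66 on the log2 scale in day 4 against day 0 (SE 0.15, edgeR adjusted p = 0.00405). The difference was -0.33 in day 8 against day 0 (95% interval -0.67 to 0.00, adjusted p = 0.0759) and 0.32 in day 8 against day 4 (-0.01 to 0.66, adjusted p = 0.143). Without day 4 replicate 2 both passed, at -0.38 (adjusted p = 0.0124) and 0.40 (adjusted p = 0.0474). The first passed also with DESeq2 (adjusted p = 0.048), with total counts (-0.69, adjusted p = 0.0055) and with only the libraries of days 0 and 8 (adjusted p = 0.0212). Gene counts do not separate the SERCA2 isoforms, and in GENCODE M21 1.36% of the Atp2a2 exon bases overlap a gene model on the other strand.

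Atp2a1, the SERCA1 pump of fast skeletal muscle, had 1, 1 and 1 counts at day 0, 5, 0 and 0 at day 4 and 1, 1 and 1 at day 8. These amounts allow no comparison between days. Of its exon bases 21.9% overlap the antisense gene Rabep2 in GENCODE M21, so that even these few reads are uncertain.

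The make-up of the SERCA RNA was compared as shares of the 3 pump genes, a test that 3 libraries a day cannot bring under 0.05. Atp2a3 made up 0.127% ± 0.014 of the summed level per kilobase of the 3 SERCA genes at day 0, 9.76% ± 5.35 at day 4 and 12.7% ± 5.00 at day 8 (SD, n = 3 each). By library the share was 0.12, 0.118 and 0.143% at day 0, 15.2, 4.51 and 9.57% at day 4 and 11.6, 18.2 and 8.43% at day 8. No later library reached down to day 0, and the exact permutation test of each later day against day 0 gave p = 0.1 (two-sided), the smallest that 3 against 3 libraries allow, while day 8 against day 4 gave p = 0.5. Atp2a2 remained the larger part, exceeding Atp2a3 by 4.49-fold to 21.2-fold in the later libraries and 698-fold to 849-fold at day 0. The summed level of the 3 pumps was 53.9 ± 4.21 CPM per kilobase at day 0, 37.7 ± 4.35 at day 4 and 49.1 ± 1.83 at day 8.

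**Figure D3:**
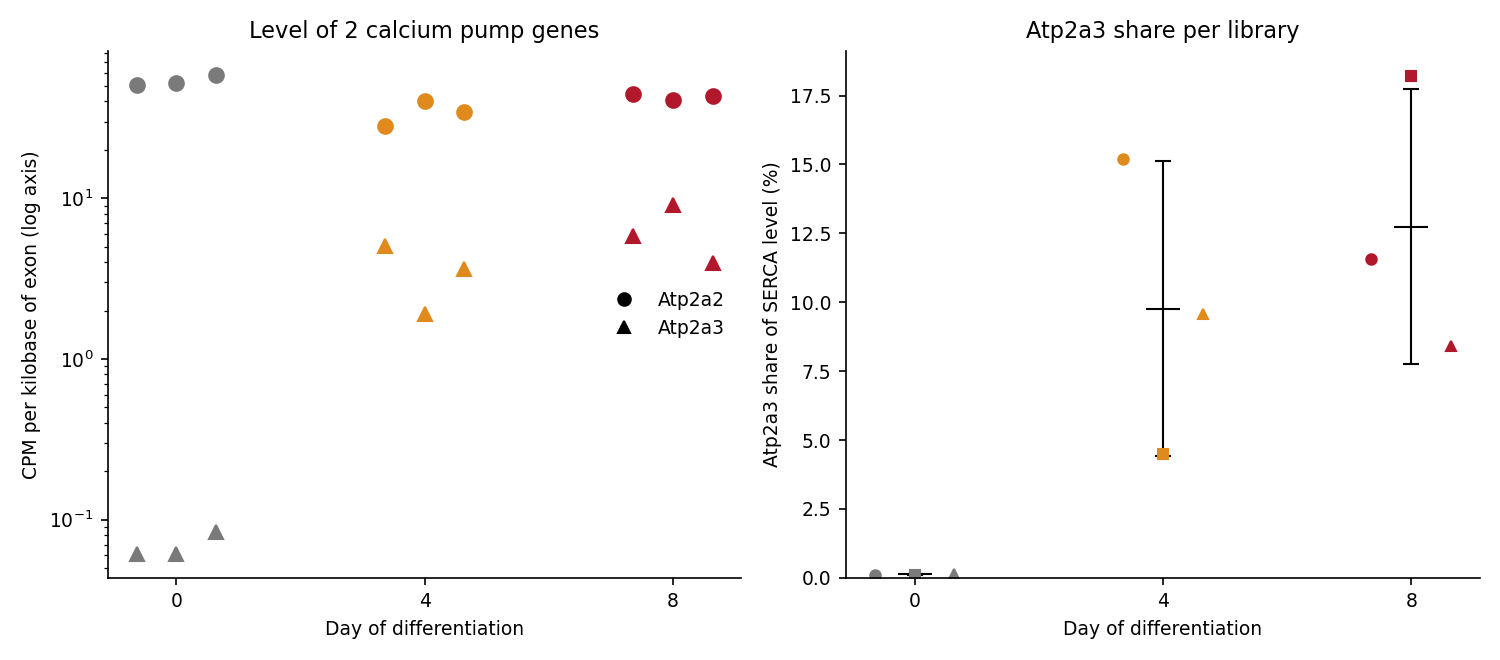
Left, level of Atp2a2 (circles) and Atp2a3 (triangles) in CPM per kilobase of exon on a log axis, by day of differentiation, with 1 point per library in the order of replicate numbers. Right, share of Atp2a3 in the summed level per kilobase of the 3 SERCA genes, in percent, with points as libraries (circle, square and triangle for replicates 1, 2 and 3) and the mean and SD of 3 libraries. The share is near 0 at day 0 and between 4.51 and 18.2% in the later libraries.

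Ordered per kilobase at day 0, Atp2a2 (53.9 CPM per kilobase) led Slc6a8 (45.6), Ckb (22.9), Gamt (8.51), Alpl (0.906), Gatm (0.186), Atp2a3 (0.0688), Ckmt1 (0.023) and Atp2a1 (0.00852), and down to Atp2a3 and Ckmt1 no neighbours in this order overlapped between libraries. Ckmt1 and Atp2a1, at 1 to 3 counts a library, could not be ordered. At day 4 the order was Atp2a2 (34.2), Gamt (22.4), Slc6a8 (17.2), Ckb (12.0), Atp2a3 (3.53) and Alpl (0.341). There Gamt and Slc6a8, and Slc6a8 and Ckb, overlapped, the range of Slc6a8 being 10.8 to 26.8. At day 8 it was Atp2a2 (42.8), Ckb (28.9), Slc6a8 (18.9), Gamt (9.01), Atp2a3 (6.29) and Alpl (0.608), with overlap between Gamt and Atp2a3. Ckmt1, Gatm and Atp2a1 overlapped with their neighbours at day 4, and Gatm with Ckmt1 and Ckmt1 with Atp2a1 at day 8.

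The genes around the creatine cycle were mixed. Of 18 such genes 12 were tested, and in day 8 against day 0 5 were higher and 5 lower, in day 4 against day 0 5 and 2, and in day 8 against day 4 1 and 3. Of all genes, 63.4%, 54.6% and 22.4% were called in these comparisons. The list's median log2 fold changes were -0.03, -0.06 and 0.01. Phospho1, a phosphatase of phosphocholine and phosphoethanolamine that is also tied to mineralisation, rose to 46.8 ± 5.96 CPM at day 8, against 2.33 ± 0.26 CPM at day 0 (log2 fold change 4.33, SE 0.39, edgeR adjusted p = 7.45e-06). At day 4 it had 19.8 ± 10.0 CPM, and the difference of 1.24 in day 8 against day 4 (adjusted p = 0.026) was 0.82 without day 4 replicate 2 and missed the threshold when day 8 replicate 1 (0.0642) or 2 (0.082) was left out. On the supply side, the arginine transporter gene Slc7a2 fell by 2.90 (adjusted p = 3.44e-05) in day 8 against day 0. Ass1 and Asl encode the consecutive enzymes that make arginine from citrulline, and they moved in opposite directions. Ass1 fell by 2.76 in day 8 against day 0 (adjusted p = 0.00351) and Asl rose by 1.19 (adjusted p = 0.000238). The fall of Ass1 by 2.17 in day 8 against day 4 (adjusted p = 0.0339) was 0.69 in size without day 4 replicate 2 (-0.69) and was not called without day 8 replicate 1 (adjusted p = 0.112), 2 (0.0932) or 3 (0.0765), or with the replicate number as a block (0.0756). With total counts the list had 3 higher and 6 lower members in day 8 against day 0 and 2 higher and 4 lower in day 4 against day 0.

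Small proteins that regulate SERCA in muscle were at or near 0. Sarcolipin (Sln), which uncouples SERCA1 in muscle, phospholamban (Pln), the inhibitor of SERCA2 in heart, and Strit1 had 0 counts in all 9 libraries. Of the 14 regulators and calcium-binding or structural proteins of the reticulum found in the table, 6 were tested. In day 8 against day 0 1 was higher and 3 were lower, and the median was -0.89 (with total counts 1 higher and 5 lower), where 63.4% of all genes were called. Jph2, a junctophilin that ties the reticulum to the plasma membrane, fell to 1.65 ± 0.886 CPM at day 8, against 54.2 ± 6.06 CPM at day 0 (-5.02, SE 0.53, edgeR adjusted p = 1.92e-05). Calu, a calcium-binding protein of the secretory pathway, fell by 1.20 (adjusted p = 0.000311), Asph, which also encodes the reticulum protein junctin, fell by 1.11 (adjusted p = 0.000932) and Srl, sarcalumenin, rose by 1.11 (adjusted p = 0.000573). In day 8 against day 4 none of the 6 passed in edgeR, where 22.4% of all genes were called. These are too few genes to set the list apart from that share. Of the 6, 2 (Asph, Jph1) had an unadjusted p under 0.05. Asph passed with DESeq2 (adjusted p = 0.0298) and in edgeR with DESeq2 size factors (0.0475), with low genes kept in (0.0346) or without day 8 replicate 1 (0.0228).

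Calcium release channels were represented by the inositol trisphosphate receptors. The ryanodine receptors Ryr1, Ryr2 and Ryr3 averaged at most 0.244 CPM on any day and were not tested. Among 7 tested genes of release, 3 were higher and 3 lower in day 8 against day 0 (2 and 4 with total counts), where 63.4% of all genes were called. Itpr3 fell to 2.66 ± 0.322 CPM at day 8, against 31.8 ± 4.67 CPM at day 0 (-3.58, SE 0.50, edgeR adjusted p = 0.000134), while Itpr2 rose to 15.3 ± 1.60 CPM at day 8, against 6.32 ± 0.294 CPM at day 0 (1.28, SE 0.20, adjusted p = 0.000255). Itpr1 was also lower in day 8 against day 0 (-0.88, edgeR adjusted p = 0.00182). Tmem38b, the TRIC-B potassium channel of the reticulum, rose by 2.47-fold (adjusted p = 6.08e-06) and Fkbp1b, a ryanodine receptor partner, fell by 2.20 (adjusted p = 0.00113). Itpr3 also fell by 2.20 in day 8 against day 4 (adjusted p = 0.011). That change was -1.35 without day 4 replicate 2, and its adjusted p was 0.0504 without day 8 replicate 2.

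Of 10 tested genes of calcium entry and export, 2 were higher and 5 lower in day 8 against day 0, a share near the 63.4% called among all genes. The sodium-calcium exchanger gene Slc8a1 fell to 1.21 ± 0.847 CPM at day 8, against 20.4 ± 6.39 CPM at day 0 (-4.07, SE 0.63, edgeR adjusted p = 0.000249), and the store-operated channel gene Orai2 fell by 2.09 (adjusted p = 9.88e-05). The plasma membrane pump gene Atp2b4 rose by 1.20 (adjusted p = 0.00102). The exchanger gene Slc8a3, at no more than 0.751 CPM on average on any day, was 1.51 higher (adjusted p = 0.0137), which did not pass without day 0 replicate 1 (0.0653) or 2 (0.0513). Slc8a3 passed the filter on low counts only through days 4 and 8, where it was high, so its call is no support for a rise. Stim1, the calcium sensor of the reticulum that opens Orai channels, was at 52.5 ± 2.40 CPM at day 0, 131.7 ± 16.2 CPM at day 4 and 62.2 ± 3.35 CPM at day 8, and fell in day 8 against day 4 (-1.08, SE 0.13, adjusted p = 0.00056).

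Of 9 genes of mitochondrial calcium uptake and export, 4 were higher and 1 lower in day 8 against day 0 (4 and 3 with total counts), also near the 63.4% called among all genes. Letm1, a cation exchanger of the inner membrane, rose by 6.33-fold (2.66, SE 0.19, edgeR adjusted p = 2.01e-06), the uniporter subunit gene Smdt1 by 3.29-fold (adjusted p = 6.05e-05) and the outer membrane channel gene Vdac1 by 3.04-fold (adjusted p = 1.56e-05). Mcub, a subunit that dampens the uniporter, fell by 1.05 (adjusted p = 0.0139). In day 8 against day 4 the pore gene Mcu (0.50, adjusted p = 0.0396) and its gatekeeper Micu2 (0.51, adjusted p = 0.0303) were called higher. Neither call passed without any 1 of the day 0 libraries, day 4 replicate 3, or day 8 replicate 1 or 2 (adjusted p from 0.0518 to 0.117), nor did Mcu without day 4 replicate 1 (0.086) or day 8 replicate 3 (0.0574).

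**Figure D4:**
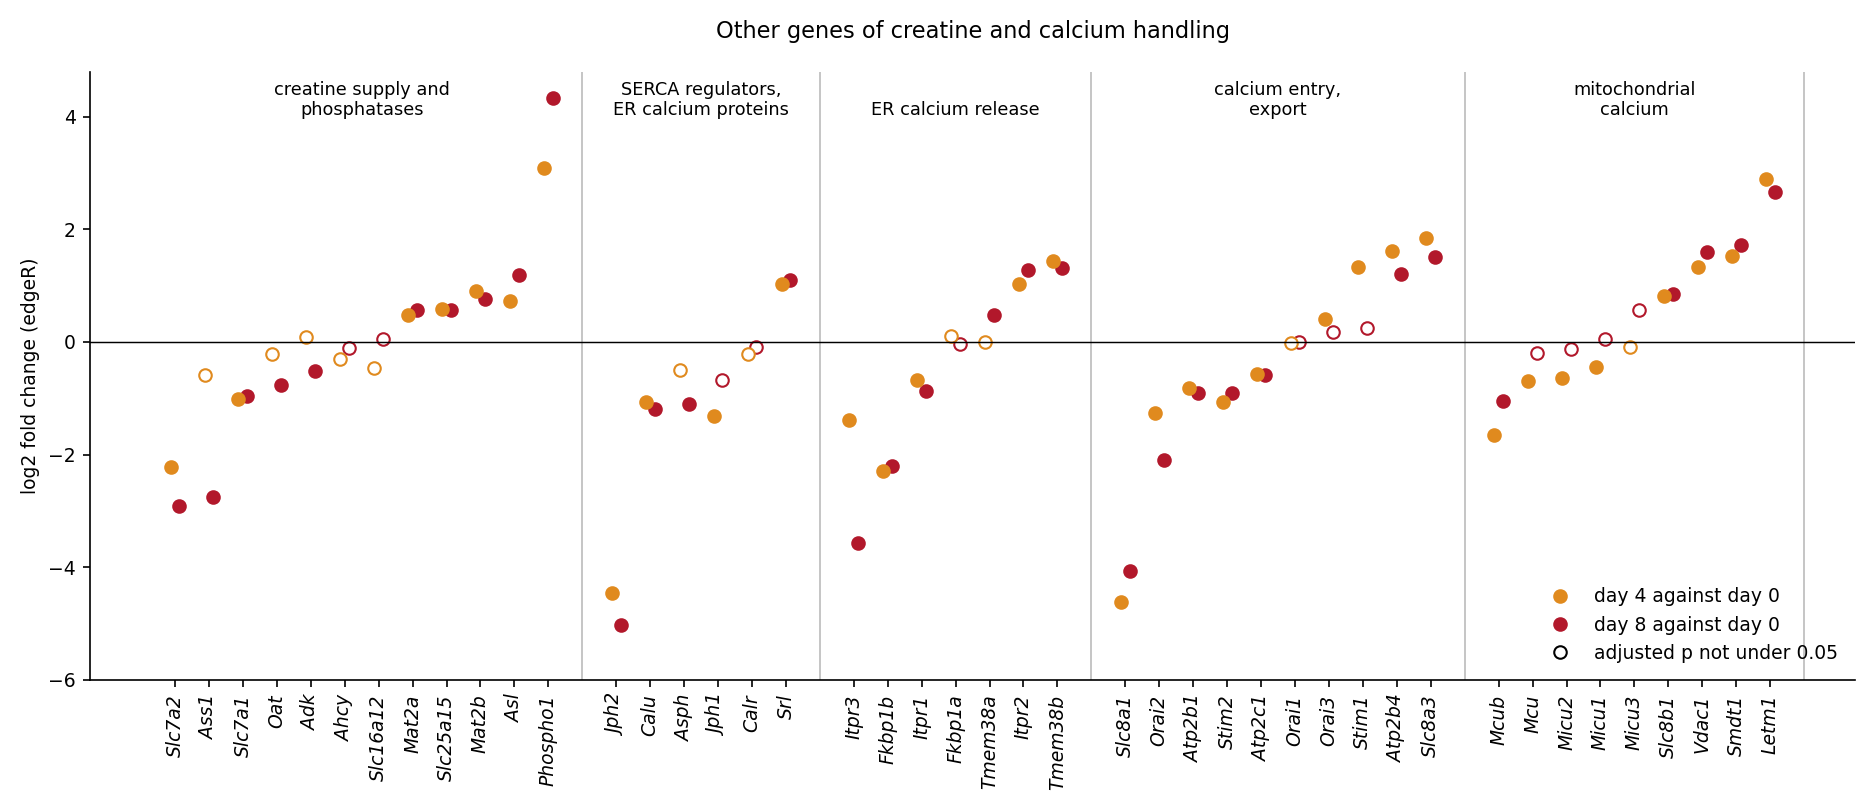
Log2 fold change (vertical axis) of the other tested genes of creatine and calcium handling, grouped by list, in day 4 against day 0 and in day 8 against day 0. Each point is a gene in 1 comparison, and open points did not have an adjusted p under 0.05. Phospho1 and Letm1 are the highest in day 8 against day 0, at 4.33 and 2.66, and Jph2 and Slc8a1 the lowest, at -5.02 and -4.07.

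Markers of other cells were compared beside these results. The 11 skeletal muscle markers, of which 4 were tested, summed to 32.6 to 40.0 CPM at day 0, 9.43 to 13.5 CPM at day 4 and 11.8 to 15.8 CPM at day 8, with Myod1 and Myh4 at 0 throughout. Acta1 fell to 8.57 CPM on average at day 8, against 32.9 CPM at day 0. Myl1 went the other way, with 0 counts at day 0 and at least 60.0-fold more than 3 counts over the day 0 group at day 8, and Actn3 was 1.25 higher in day 4 against day 0 (edgeR adjusted p = 0.00865). The 7 markers of blood cells and platelets summed to 6.06 to 11.2 CPM at day 0, 6.59 to 9.17 CPM at day 4 and 7.21 to 19.6 CPM at day 8, with Cd3e at 0 on days 0 and 4, and the 5 endothelial markers to 11.4 to 15.5, 2.50 to 10.5 and 1.81 to 2.73 CPM. Atp2a3, a gene of these cells, was highest in day 8 replicate 2, which had the highest blood cell sum and the lowest endothelial sum. It was lowest after day 0 in day 4 replicate 2, which had the highest endothelial sum of the later libraries. Of the 4 blood cell markers tested, Cd68 alone was called in day 8 against day 4 (1.59, edgeR adjusted p = 0.0278), where 22.4% of all genes were. The Cd68 call did not hold without replicate 1 or 3 of day 4, or replicate 2 or 3 of day 8 (up to 0.109). The 7 mammary epithelium markers summed to at most 0.651 CPM, with Krt14 and Elf5 at 0 in all libraries. The 5 markers of Schwann cells and glia, cells that use Ckb, summed to 4.17 to 6.62, 5.63 to 9.97 and 5.51 to 8.86 CPM by day, and the 5 mural markers to 130.4 to 213 CPM at day 0, 18.8 to 24.5 CPM at day 4 and 29.9 to 53.2 CPM at day 8. Of the 4 mural markers tested in day 8 against day 0, Des (2.34) and Cspg4 (1.90) were higher and Cnn1 (-6.09) and Myh11 (-2.17) lower on the log2 scale. Over all genes 63.4% were called in that comparison. The part of these cells in the results was not tested. The 7 markers of thermogenic fat cells summed to 1.45 to 1.52 CPM at day 0, 222 to 768 CPM at day 4 and 1421 to 2347 CPM at day 8. Within day 4 (768, 222 and 536 CPM) and within day 8 (1786, 2347 and 1421 CPM) the libraries stood in the same order by this sum as by Atp2a3. The sum of the 6 adipocyte markers gave that same order within day 4 (36587, 19684 and 32480 CPM) and within day 8 (26913, 29138 and 26897 CPM). The match was thus not particular to thermogenic markers, and it was not tested.

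Genes of the most similar course were taken as the 2 tested genes with the smallest root mean square difference in log2 CPM over the 9 libraries, each gene centred on its own mean. For Ckb these were Wfs1 (0.141) and Arhgef4 (0.149), and Wfs1 averaged 42.0, 19.9 and 50.2 CPM at days 0, 4 and 8. For Gamt they were Rbm4 (0.176) and L3hypdh (0.182), for Slc6a8 the glycine transporter gene Slc6a9 (0.12) and Mapk7 (0.131), and for Alpl the junctophilin gene Jph1 (0.241) and Samd4 (0.243). For Atp2a2 they were Smad4 (0.0987) and Appl2 (0.1). The distances were larger for Gatm and Atp2a3. For Gatm, where counts are few, the genes were Tcte2 (0.294) and Klhl11 (0.334). For Atp2a3 they were Acacb (0.282), which encodes an acetyl-CoA carboxylase, and Mgst3 (0.327), and Acacb averaged 3.12, 152 and 206 CPM at days 0, 4 and 8.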

How the data were processed

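The values deposited by the authors are unnormalized counts for each gene and library. The submitters' processing notes name HISAT2, featureCounts and the build GRCm39; tool versions, annotation and the strand setting are not given in the sources used here. Where genes overlap, or lie antisense, their counts may be mixed. The library kit marks strand, per the labels' protocols.

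Tests used edgeR 4.0.16 in R 4.3.3 (filterByExpr, minimum count 10, minimum total 15; 14649 genes kept). All 9 libraries entered 1 quasi-likelihood fit with TMM scaling and no covariate (6 residual degrees of freedom). P-values are two-sided and Benjamini-Hochberg adjusted over all genes tested, with a threshold of 0.05. The SE is the log2 fold change divided by the root of the F statistic. DESeq2 1.42.0, other scalings, no filter, a replicate block, only the 2 days compared and each library left out were the alternatives. Lengths came from GENCODE M21 (GRCm38), used for lengths and overlaps only. The floor is 3 counts, which is 0.0808 to 0.125 CPM in 1 library. Replicate pairs differed by more than sampling noise (chi-square per degree of freedom 15.5 to 229).

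The genes and lists were chosen with earlier results of these data known. Named pathway genes were the up to 4 called genes per list with the largest change in day 8 against day 0, up to 2 in day 8 against day 4, and Sln, Pln, Phospho1 and Adrb3. Of the listed symbols 2 had no row in the table (Erln, Arln). Ryr1, Ryr2, Ryr3, Itpr1, Strit1, Stim1, Jph1, Ckm and the cell type markers were named after their values were seen where the rule did not name them.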

Additional observations from a re-analysis of the deposited data

How the results depend on the processing

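There were 15 alternatives for each of 7 tested genes in 3 comparisons. The exception was Gatm in day 8 against day 4, with 14, as the fit of only those 2 days gave it no value. Of these, 275 values kept direction and side of the threshold, 15 newly passed it, 9 no longer passed and 15 turned sign. With total counts 5 members changed in day 8 against day 0, against 3 with TMM, and the median of all genes was -0.33. The count of all changed genes in day 8 against day 4 was 1901 in place of 3285 with only the 2 days compared. With 1 library left out, these counts ranged from 8323 to 10113 genes and 2 to 4 members in day 8 against day 0, 6613 to 9109 and 6 to 7 in day 4 against day 0, and 1894 to 4185 and 2 to 4 in day 8 against day 4, where 4 came without day 4 replicate 2, and 1894, 2108 and 2012 genes without day 4 replicate 3 and day 8 replicates 1 and 2.

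Signs turned only for differences that were not called. Day 8 against day 0 was -0.0283 for Ckb and -0.27 for Gamt with total counts, and -0.14 to 0.21 for Gamt with a library left out (negative without day 0 replicate 1, -0.03, and day 8 replicate 3, -0.14). Day 8 against day 4 for Gatm, 0.01, was -0.00925 with DESeq2 size factors, -0.0494 with total counts, 0.00 (-0.0031) with DESeq2, -0.14 with the replicate block and -1.11 to 0.67 with a library left out, and for Slc6a8, 0.14, it was -0.11 to 0.56. Causes were not tested. Gatm in day 8 against day 0 was not called with no filter (adjusted p = 0.0759), DESeq2 (0.0684) or the block (0.0652).

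Replicate numbers did not meet the rule used for pairing, a correlation of deviations over 0.1 in every same-numbered pair: they ranged from -0.126 to 0.273. As a hint of some pairing, 6 of 9 libraries correlated best with their own number. With the replicate block 9367, 8070 and 3105 genes and 2, 6 and 2 members changed, in the order of the comparisons above. At 3 libraries per day the low counts of Gatm, Ckmt1 and Atp2a1 limit what can be seen.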

Other observations

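Adrenergic receptors, through which noradrenaline switches on heat production in fat, changed in both directions during differentiation. Of 7 tested receptor genes 4 were higher and 2 lower in day 8 against day 0. Over all genes 33.5% were higher and 29.9% lower, or 63.4% in either direction. The 4 higher genes include Adra1a, whose call is limited as given below. Adrb3, the main receptor of mouse fat cells, rose to 158 ± 31.2 CPM at day 8, against 1.32 ± 0.657 CPM at day 0 (log2 fold change 6.90, SE 0.49, edgeR adjusted p = 1.76e-06). Adra1a, which signals through Gq to release calcium, had 2.59 ± 0.361 CPM at day 8, 0.523 ± 0.208 CPM at day 4 and 0 counts in the day 0 libraries. Against a floor of 3 counts over the day 0 group it was at least 87.9-fold higher at day 8. Its log2 fold change in day 8 against day 4 was 2.29 (SE 0.42, edgeR adjusted p = 0.00703). Adra1a passed the filter on low counts only through day 8, where it was high. Neither this call nor its call in day 8 against day 0 is therefore support for a rise. Adra2a, the inhibitory receptor of fat cells, fell to 0.536 ± 0.0216 CPM at day 8, against 24.3 ± 5.00 CPM at day 0 (-5.49, SE 0.60, adjusted p = 2.49e-05). Adrb1 was higher in day 8 against day 4 (2.05, adjusted p = 0.042), a call that did not pass with total counts (0.051) or without day 0 replicate 3 (0.0632), day 4 replicate 1 (0.0719) or 3 (0.123), or day 8 replicate 1 (0.0986), 2 (0.102) or 3 (0.0652).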
